A study of Homo sapiens with 18 samples.

Results

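The genes described here make cholesterol and fatty acids, or control that synthesis and the export of sterols. They were chosen as the rows of the deposited expression table with the symbols of 34 genes, of 26668 gene symbols in all, and all 34 were found. By role they are 18 enzymes of the mevalonate and sterol pathway, 5 genes of SREBP regulation and sterol transfer, 8 enzymes of fatty acid synthesis, and 3 genes of sterol efflux and lipoprotein receptor turnover that the nuclear receptor LXR switches on. Each was followed in 3 established human pancreatic cancer cell lines with and without knockdown of OFD1, a protein of centrioles and centriolar satellites.

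Cells make cholesterol from acetyl-CoA through mevalonate and squalene, and make fatty acids from the same acetyl-CoA through malonyl-CoA. When sterols in the endoplasmic reticulum run low, SCAP carries the SREBP precursors to the Golgi, where they are cut, and the freed part enters the nucleus and switches on most of these genes together. When sterols are plentiful, INSIG proteins hold SCAP back, and oxysterols activate LXR, which raises sterol export. Many tumor cells, those of the pancreas among them, depend on synthesis or uptake of these lipids for membranes.

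RNA was sequenced from 3 control and 3 knockdown cultures of PANC1, MIA PaCa-2 and PATU8988T, 18 libraries in all, with PANC1 and PATU8988T named PANC-1 and PaTu 8988T in the labels. Per the labels, the knockdown cells have the genotype shOFD1 and were collected 72 h after doxycycline was given to induce the short hairpin RNA, and the study's methods describe a lentiviral Tet-on construct that all cells carry. The controls are titled shControl and labelled as WT and as untreated, whereas the methods describe the Tet-on-shOFD1 cells with DMSO in place of doxycycline, and the series text sets the controls at day 0. All knockdown cultures and no controls received doxycycline, whose own effect cannot be told apart from that of OFD1 loss. If the controls were collected at day 0, an effect of the 72 h in culture cannot be told apart from it either. The labels do not say whether the replicates are separate experiments, so the p-values measure the spread between these cultures. The labels of the cell line in PATU8988T replicates 2 and 3 carry other numbers than the titles, and the titles were followed.

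Values are FPKM, that is, reads counted on a gene divided by its length and by the reads of the library. The change in a line is the difference between knockdown and control in log2(FPKM + 0.1), tested with limma across every gene of the line with a mean of at least 1 FPKM. A gene was called higher or lower at a Benjamini-Hochberg adjusted p below 0.05 over all those genes, and the fold limit of the study, above 2 or below 0.5, was applied as a further step. The SE is the moderated standard error of limma. A lower value in a culture can come from fewer cells of a kind or from less RNA per cell, which these data cannot tell apart.

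OFD1 itself was at 5.50, 5.12 and 5.67 FPKM in the control libraries and 2.80, 2.27 and 2.58 FPKM in the knockdown libraries of PANC1. MIA PaCa-2 had 3.09, 2.27 and 3.20 FPKM in the control libraries and 1.76, 1.74 and 1.97 FPKM in the knockdown libraries. PATU8988T had 2.14, 1.93 and 2.12 FPKM in the control libraries and 0.986, 0.894 and 0.854 FPKM in the knockdown libraries. Control and knockdown did not overlap in any line. On the log2 scale OFD1 fell by 1.07 (SE 0.09, adjusted p = 2.70e-06) in PANC1, fell by 0.61 (SE 0.16, adjusted p = 0.0232) in MIA PaCa-2 and fell by 1.10 (SE 0.10, adjusted p = 5.47e-05) in PATU8988T. Between 32486479 and 39797537 reads were counted on genes per library, as recovered from the spacing of low FPKM values. Of 6 epithelial markers, all 6 averaged 1 FPKM or more in PANC1, 3 in MIA PaCa-2 (KRT8, KRT18 and KRT19) and 3 in PATU8988T (EPCAM, KRT8 and KRT18). Hepatocyte, adipocyte and endothelial markers were near 0, with at most 1 of 6 hepatocyte markers and none of the others at 1 FPKM in any line, and the summed level of the 4 adipocyte markers in the table stayed at or below 0.634 FPKM in every library. Of the fibroblast collagen genes, COL3A1 rose by 0.80 (SE 0.044, adjusted p = 1.17e-07) in PANC1 and rose by 2.23 (SE 0.082, adjusted p = 1.26e-04) in MIA PaCa-2, whereas COL1A1 fell by 0.23 (SE 0.037, adjusted p = 3.34e-04) in PANC1, and the summed level of 5 fibroblast markers went from 35.1 to 37.0 FPKM in the PANC1 controls to 40.2 to 40.6 FPKM, and from 6.14 to 6.84 FPKM to 29.7 to 30.7 FPKM in MIA PaCa-2. The leukocyte gene PTPRC, 1 of 5 blood cell markers and the only one at 1 FPKM, rose by 0.81 (SE 0.23, adjusted p = 0.0312) in MIA PaCa-2. The part of these markers in the results below was not tested.

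In MIA PaCa-2, control replicate 2 stood apart from control replicates 1 and 3. Over the 30 members tested in that line, its log2 distance from the mean of the other two controls ranged from -0.80 for MSMO1 to 0.85 for SREBF1, with a median size of 0.44, whereas controls 1 and 3 differed from each other by a median of 0.041 and by at most 0.20. The distance followed the GC content of the transcript, with a Pearson r of 0.94 and a Spearman rho of 0.93 over the 30 members, and 0.87 and 0.89 over the 10233 genes with a GC value. These points share 3 libraries and are not independent. Members with few G and C bases, such as MSMO1 and IDI1, read low in that library, and members with many, such as SREBF1, MVD and FASN, read high. The changes of the members in MIA PaCa-2, and most counts, are given with and without it. Markers, single genes of the other lists and the members' single differences between lines are given with all libraries only.

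**Figure D1:**
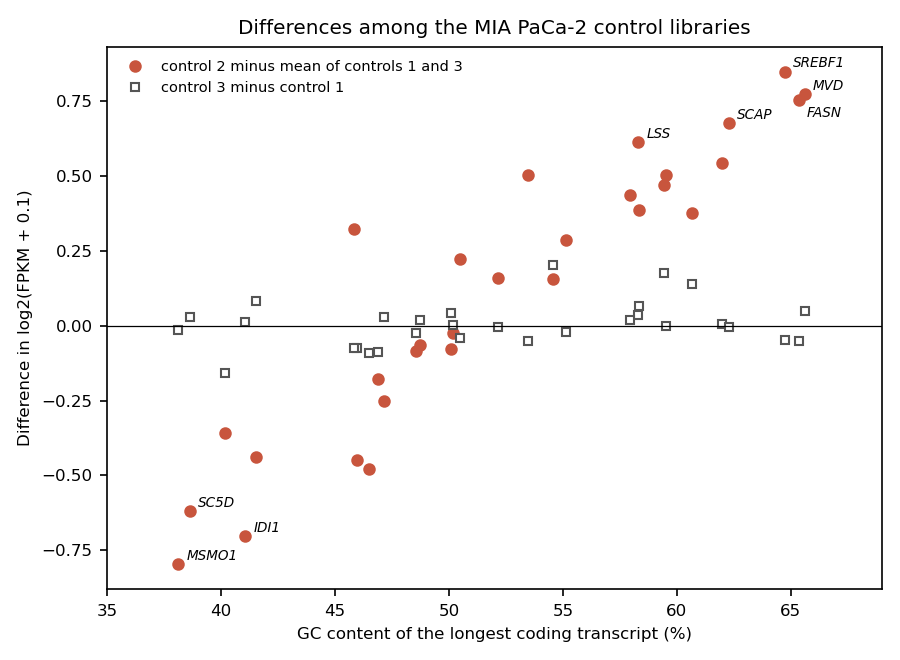
Differences among the MIA PaCa-2 control libraries in log2(FPKM + 0.1), plotted for the 30 members tested in that line against the GC content of the longest coding transcript in percent. Filled circles, control 2 minus the mean of controls 1 and 3, climb from -0.80 to 0.85, whereas open squares, control 3 minus control 1, stay within 0.20 of 0.

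The 3 lines gave 3 different pictures. In PANC1 most members fell with OFD1 knockdown, in MIA PaCa-2 most rose, and in PATU8988T the changes were small and went both ways. Of the 33 members tested in PANC1, 24 were called lower and 2 higher, where 32.2% of all genes tested were called lower and 40.1% higher. MIA PaCa-2 had 20 of 30 members called higher and 0 called lower, against 18.7% and 21.7% of all genes. At an unadjusted p below 0.05, limma also put 0 members lower there and 22 higher. In PATU8988T, 11 of 32 members were called higher and 9 lower, against 20.9% and 18.5% of all genes. In 1 fit of all libraries, which tested 30 members, 16 were lower in PANC1, 23 were higher in MIA PaCa-2, and PATU8988T had 6 higher and 2 lower. STARD4, ELOVL6 and ABCA1, all called lower in PANC1, were not tested in that fit. Of the PATU8988T members, 7 were higher without control replicate 2 of that line and 6 lower without its control replicate 3. The shares of all genes called in these settings are not given, so these counts have no background beside them. PANC1 gave the members a median log2 fold change of -0.23, MIA PaCa-2 one of 0.62 and PATU8988T one of 0.018, beside medians of 0.060, -0.031 and 0.028 over all genes tested.

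Without control replicate 2, 27 of the 30 members tested in MIA PaCa-2 were called higher and again 0 lower, beside 35.4% higher and 39.8% lower of all 10758 genes. The members' median was then 0.62. In PANC1, 3 members passed the fold limit downward and 0 upward, against 4.84% and 1.75% of genes. They were MSMO1, ELOVL6 and ABCA1, and SCD, at 0.522 times its control level, lay just short of the limit. The limma counts at an unadjusted p below 0.05 were the same. In MIA PaCa-2, 6 members passed it upward and 0 downward, adjusted or not, against 4.07% and 3.68% of genes: ACSS2, INSIG1, HMGCS1, MVD, CYP51A1 and FDPS, the last at 2.004 times its control level. No member passed it in PATU8988T, where 0.159% of genes passed it upward and 0.841% downward, and none did so there by limma at an unadjusted p below 0.05.

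**Figure D2:**
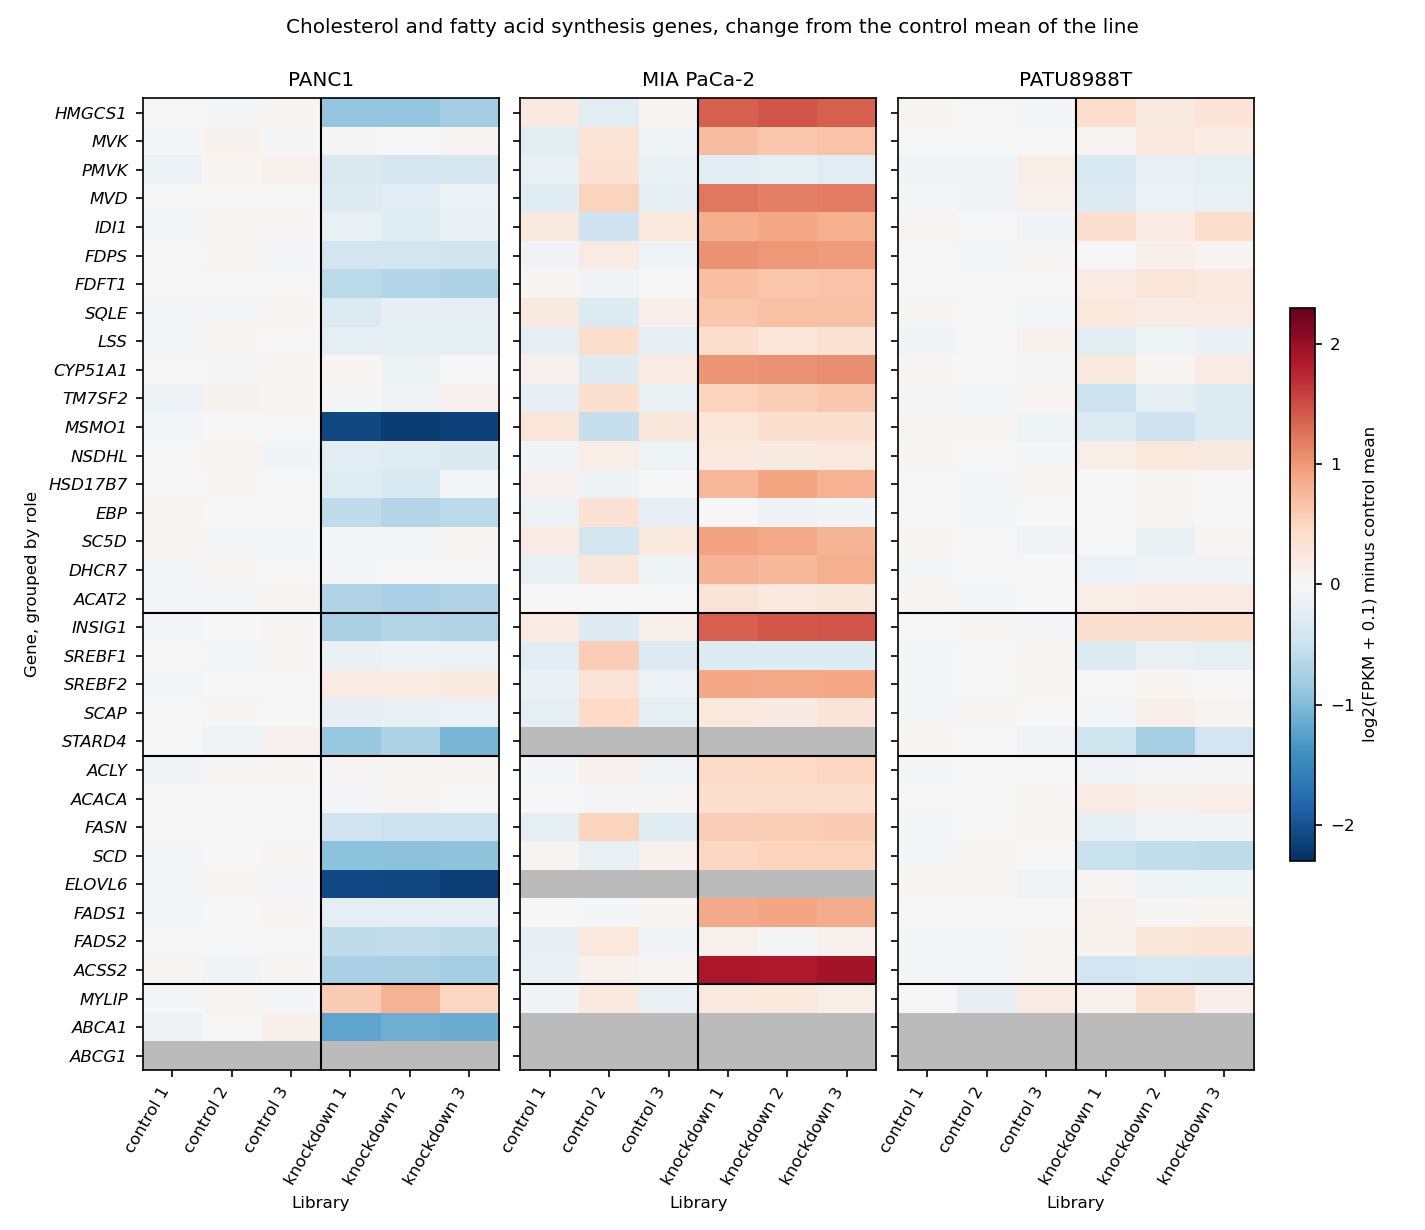
Each row is 1 of the 34 genes, grouped by role with black lines between the groups, and each column 1 library. Color gives log2(FPKM + 0.1) minus the mean of the line's 3 control libraries, and grey rows were not tested in that line. The PANC1 knockdown columns are mostly blue, the MIA PaCa-2 knockdown columns mostly red, and control 2 of MIA PaCa-2 departs from the other two controls.

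The library medians showed the same order. Relative to the control mean, the member median was -0.30, -0.29 and -0.23 in the PANC1 knockdown libraries, 0.59, 0.59 and 0.64 in those of MIA PaCa-2, and 0.015, 0.036 and 0.035 in those of PATU8988T. The control libraries lay between -0.018 and 0.011 in PANC1, between -0.063 and 0.13 in MIA PaCa-2 and between -0.012 and 0.015 in PATU8988T. No member was called in the same direction in all 3 lines, but the share of all genes that was is not given beside it. For PANC1 and MIA PaCa-2, which share 30 tested members, 12 were called lower in the former and higher in the latter and 0 the other way around, beside 2.58% and 3.62% of all genes tested in both. SREBF2 was the single member called higher in both, as were 11.5% of genes. Of the 32 tested in both PANC1 and PATU8988T, 8 were lower in both (10.5% of genes) and 8 were lower in PANC1 and higher in PATU8988T (4.64% of genes). MIA PaCa-2 and PATU8988T shared 9 members called higher (3.33% of genes), and MVD, TM7SF2, SCD and ACSS2 were higher in MIA PaCa-2 and lower in PATU8988T (4.22% of genes).

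Most of these genes are known targets of SREBP, and their promoters were read for its site. RefSeq promoter windows of 250 bases before to 50 bases after the start (GRCh38.p14) matched 29 of the 34 members. The sterol regulatory element was searched on both strands as TCACNCCAC, and the box bound by NF-Y, a partner of SREBP, as CCAAT. An exact element lay in 1 of the 29 windows, that of SREBF2, and in 1.15% of all 27305 windows. With up to 1 mismatch it lay in 13 of 29 windows (44.8%), against 24.18% of all windows, and CCAAT lay in 19 of 29 (65.5%), against 35.7%. Stretches that hold both, from 5 of the members, are shown 5′ to 3′ on the plus strand, with capitals marking the element (up to 1 mismatch) and the CCAAT box or its complement ATTGG. The first, from SREBF2, holds the exact element.
SREBF2 chr22:41832967-41833008: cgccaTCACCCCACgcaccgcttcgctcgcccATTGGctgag
MSMO1 chr4:165327508-165327539: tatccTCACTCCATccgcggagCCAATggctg
HSD17B7 chr1:162790599-162790659: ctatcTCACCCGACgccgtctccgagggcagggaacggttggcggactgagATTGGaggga
FDPS chr1:155308721-155308753: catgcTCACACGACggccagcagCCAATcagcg
INSIG1 chr7:155297665-155297717: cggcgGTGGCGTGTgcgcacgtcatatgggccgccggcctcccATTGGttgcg
A match is a description of letters and not a binding site, and the motifs and the mismatch limit were chosen after the values were seen. These genes did not move alike. SREBF2 and FDPS rose in MIA PaCa-2 and moved in opposite directions in PANC1, and MSMO1 had the deepest fall of all members in PANC1 with no call in MIA PaCa-2.

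Among the 18 enzymes of the mevalonate and sterol pathway, 13 were called lower and 0 higher in PANC1, 13 higher and 0 lower in MIA PaCa-2, and 8 higher and 5 lower in PATU8988T. All genes had 32.2% lower and 40.1% higher in PANC1, 18.7% higher and 21.7% lower in MIA PaCa-2, and 20.9% higher and 18.5% lower in PATU8988T. The unadjusted counts of limma were also 0 for the higher side in PANC1 and 0 for the lower side in MIA PaCa-2. Their median log2 fold change was -0.23, 0.66 and 0.044 in the 3 lines. The order below follows the pathway from acetyl-CoA to cholesterol. Noncoding genes annotated on the other strand overlap exons of HMGCS1, IDI1, FDPS, FDFT1, LSS, CYP51A1, SREBF2, STARD4 and ACLY, and their reads cannot be told apart where the counting ignores strand.

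Several calls among the members were narrow. In PATU8988T, MVK lost its call in 9 of 15 alternative settings, CYP51A1 in 8, LSS in 7, FADS2 in 5, PMVK and MVD in 3 each and ACACA in 2. In MIA PaCa-2, TM7SF2 lost its call in 6, among them whenever control replicate 1 or 3 or any knockdown library was left out. ACAT2, MVK and IDI1 lost theirs there without any 1 of the knockdown libraries, SQLE without knockdown replicate 2 or 3, and SC5D without knockdown replicate 1 or 2. In PANC1, HSD17B7 lost its call without knockdown replicate 2, and MVD, IDI1, LSS, SREBF1 and SCAP did in 1 fit of all libraries, as did IDI1, SQLE, TM7SF2, MSMO1 and SREBF1 in PATU8988T.

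ACAT2, the cytosolic thiolase that joins 2 acetyl-CoA, stood in PANC1 at 106, 106 and 114 FPKM in the control libraries and 67.1, 64.5 and 66.7 FPKM in the knockdown libraries. MIA PaCa-2 had 57.0, 56.0 and 57.0 FPKM in the control libraries and 69.7, 66.3 and 67.8 FPKM in the knockdown libraries. PATU8988T had 206, 194 and 203 FPKM in the control libraries and 219, 229 and 229 FPKM in the knockdown libraries. No line's groups overlapped, with knockdown below control in PANC1 and above it in the other two. On the log2 scale ACAT2 fell by 0.71 (SE 0.034, adjusted p = 3.63e-08) in PANC1, rose by 0.26 (SE 0.061, adjusted p = 0.0158) in MIA PaCa-2 and rose by 0.17 (SE 0.037, adjusted p = 0.00600) in PATU8988T. The exons of ACAT2 overlap those of TCP1 and SOD2 on the other strand, and the counting is not stated to use strand, so reads from the overlaps cannot be told apart.

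HMGCS1 (chr5:43289395-43313512, GRCh38), the synthase that adds the third acetyl unit and makes HMG-CoA, read 38.2, 36.5 and 38.8 FPKM in the control libraries and 20.4, 20.3 and 21.8 FPKM in the knockdown libraries of PANC1. Readings in MIA PaCa-2 were 12.2, 8.98 and 10.9 FPKM in the control libraries and 27.6, 29.2 and 27.7 FPKM in the knockdown libraries. PATU8988T gave 100.4, 96.6 and 95.7 FPKM in the control libraries and 128, 113 and 121 FPKM in the knockdown libraries. Again the groups were apart in all lines, and the mean in MIA PaCa-2 went from 10.7 ± 1.63 to 28.2 ± 0.871 FPKM (SD, n = 3). HMGCS1 fell by 0.86 (SE 0.041, adjusted p = 4.27e-08) in PANC1, whereas it rose by 1.40 (SE 0.12, adjusted p = 4.78e-04) in MIA PaCa-2 and rose by 0.31 (SE 0.049, adjusted p = 0.00119) in PATU8988T.

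The kinases and the decarboxylase that turn mevalonate into the isoprene unit did not move as a block. MVK, the first kinase, had a difference of 0.021 in PANC1 (adjusted p = 0.691), rose by 0.66 (SE 0.15, adjusted p = 0.0134) in MIA PaCa-2 and rose by 0.15 (SE 0.052, adjusted p = 0.0392) in PATU8988T. Its exons overlap MMAB on the other strand. PMVK, the second kinase, fell by 0.36 (SE 0.055, adjusted p = 2.18e-04) in PANC1 and fell by 0.25 (SE 0.066, adjusted p = 0.0161) in PATU8988T, and had a difference of -0.24 (SE 0.15, adjusted p = 0.226) in MIA PaCa-2, or -0.075 (adjusted p = 0.0558) without control replicate 2. PMVK, SREBF1 and EBP were the 3 members with a value below 0 in MIA PaCa-2.

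MVD (chr16:88651935-88663161), the decarboxylase, stood at 43.4, 43.4 and 43.1 FPKM in the control libraries and 35.1, 36.5 and 39.3 FPKM in the knockdown libraries of PANC1. MIA PaCa-2 showed 20.8, 36.3 and 21.5 FPKM in the control libraries and 58.9, 57.0 and 57.2 FPKM in the knockdown libraries, where control replicate 2 lay above the other two controls and below every knockdown library. PATU8988T showed 80.5, 77.8 and 87.1 FPKM in the control libraries and 66.7, 74.2 and 72.9 FPKM in the knockdown libraries. MVD fell by 0.23 (SE 0.042, adjusted p = 6.64e-04) in PANC1, rose by 1.19 (SE 0.21, adjusted p = 0.00555) in MIA PaCa-2 and fell by 0.20 (SE 0.054, adjusted p = 0.0171) in PATU8988T. Without control replicate 2 the MIA PaCa-2 value was 1.44 (adjusted p = 8.16e-09).

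IDI1, the isomerase of the isoprene unit, was at 18.9, 19.8 and 19.7 FPKM in the control libraries and 17.3, 16.0 and 17.5 FPKM in the knockdown libraries of PANC1. MIA PaCa-2 had 14.3, 8.78 and 14.4 FPKM in the control libraries and 21.7, 22.8 and 21.4 FPKM in the knockdown libraries, and the low control is again replicate 2. PATU8988T had 50.8, 48.3 and 46.9 FPKM in the control libraries and 63.4, 55.4 and 64.0 FPKM in the knockdown libraries. All knockdown libraries were below control in PANC1 and above it in the other two lines. IDI1 fell by 0.20 (SE 0.047, adjusted p = 0.00295) in PANC1, rose by 0.84 (SE 0.20, adjusted p = 0.0147) in MIA PaCa-2, or 0.61 (adjusted p = 1.74e-06) without control replicate 2, and rose by 0.32 (SE 0.059, adjusted p = 0.00241) in PATU8988T.

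FDPS (chr1:155308748-155320666), which makes farnesyl diphosphate at the branch point to sterols and protein prenylation, read 139, 141 and 134 FPKM in the control libraries and 103, 101 and 100.2 FPKM in the knockdown libraries of PANC1. FDPS in MIA PaCa-2 stood at 89.1, 108 and 87.8 FPKM in the control libraries and 193, 188 and 187 FPKM in the knockdown libraries. PATU8988T had 315, 309 and 320.5 FPKM in the control libraries and 318, 341 and 330.3 FPKM in the knockdown libraries, and here the groups overlapped. FDPS fell by 0.44 (SE 0.026, adjusted p = 1.53e-07) in PANC1 and rose by 1.003 (SE 0.092, adjusted p = 5.25e-04) in MIA PaCa-2, and had a difference of 0.066 (SE 0.036, adjusted p = 0.177) in PATU8988T.

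FDFT1, squalene synthase and the first enzyme committed to sterols, had 30.3, 30.7 and 30.5 FPKM in the control libraries and 19.8, 19.0 and 18.6 FPKM in the knockdown libraries of PANC1. It had 44.3, 41.4 and 43.6 FPKM in the control libraries and 69.3, 67.3 and 68.1 FPKM in the knockdown libraries of MIA PaCa-2, where control replicate 2 was close to the other two. PATU8988T gave 93.9, 93.2 and 93.0 FPKM in the control libraries and 106, 113 and 109 FPKM in the knockdown libraries. FDFT1 fell by 0.67 (SE 0.037, adjusted p = 1.11e-07) in PANC1, rose by 0.66 (SE 0.065, adjusted p = 6.64e-04) in MIA PaCa-2 and rose by 0.23 (SE 0.035, adjusted p = 0.00107) in PATU8988T, each with no overlap of the groups.

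SQLE, squalene epoxidase and a slow step of the pathway, stood at 58.4, 58.1 and 60.9 FPKM in the control libraries and 47.8, 51.7 and 51.5 FPKM in the knockdown libraries of PANC1. MIA PaCa-2 gave 22.2, 15.4 and 20.9 FPKM in the control libraries and 29.6, 31.0 and 30.8 FPKM in the knockdown libraries. PATU8988T gave 117, 113 and 113 FPKM in the control libraries and 135, 128 and 131 FPKM in the knockdown libraries. The groups did not overlap in any line, with knockdown lower in PANC1 only. SQLE fell by 0.23 (SE 0.037, adjusted p = 2.80e-04) in PANC1, rose by 0.66 (SE 0.14, adjusted p = 0.0118) in MIA PaCa-2 and rose by 0.20 (SE 0.035, adjusted p = 0.00186) in PATU8988T.

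LSS, which closes squalene epoxide into lanosterol, fell by 0.22 (SE 0.033, adjusted p = 1.87e-04) in PANC1 and fell by 0.17 (SE 0.053, adjusted p = 0.0281) in PATU8988T, and had a difference of 0.33 (SE 0.17, adjusted p = 0.169) in MIA PaCa-2. Without control replicate 2, the MIA PaCa-2 value was 0.53 (adjusted p = 3.10e-06) and the gene was called higher.

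CYP51A1, the lanosterol demethylase, showed 66.2, 64.3 and 68.9 FPKM in the control libraries and 68.5, 61.2 and 65.7 FPKM in the knockdown libraries of PANC1, which overlapped. MIA PaCa-2 showed 48.6, 36.9 and 51.5 FPKM in the control libraries and 91.6, 92.5 and 94.4 FPKM in the knockdown libraries. PATU8988T showed 82.7, 79.8 and 79.1 FPKM in the control libraries and 93.8, 84.0 and 92.01 FPKM in the knockdown libraries. CYP51A1 had a difference of -0.03 (SE 0.043, adjusted p = 0.545) in PANC1, rose by 1.04 (SE 0.13, adjusted p = 0.00150) in MIA PaCa-2 and rose by 0.16 (SE 0.046, adjusted p = 0.0234) in PATU8988T. The annotation places another gene model on the same strand over its exons, and exons of TM7SF2 and FADS2 touch those of VPS51 and FEN1 on the same strand.

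TM7SF2, a sterol reductase, was at 21.8, 25.5 and 24.9 FPKM in the control libraries and 23.2, 22.6 and 25.6 FPKM in the knockdown libraries of PANC1. It was at 19.5, 28.6 and 19.6 FPKM in the control libraries and 31.8, 32.7 and 34.3 FPKM in the knockdown libraries of MIA PaCa-2. PATU8988T had 43.4, 43.0 and 45.7 FPKM in the control libraries and 31.2, 38.0 and 35.3 FPKM in the knockdown libraries. PANC1 overlapped, MIA PaCa-2 lay higher and PATU8988T lower with knockdown. The difference was -0.012 in PANC1 (adjusted p = 0.872), and TM7SF2 rose by 0.57 (SE 0.16, adjusted p = 0.0285) in MIA PaCa-2 and fell by 0.34 (SE 0.066, adjusted p = 0.00311) in PATU8988T.

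MSMO1 (chr4:165327623-165343160), a methyl sterol oxidase that acts after CYP51A1 in the removal of methyl groups, had the deepest fall of all members in PANC1. It went from 71.7, 73.0 and 73.2 FPKM in the control libraries to 17.0, 15.9 and 16.3 FPKM in the knockdown libraries, or from 72.6 ± 0.794 to 16.4 ± 0.552 FPKM on average (SD, n = 3). MIA PaCa-2 had 17.8, 10.1 and 17.6 FPKM in the control libraries and 17.9, 18.9 and 18.9 FPKM in the knockdown libraries. PATU8988T had 73.5, 72.0 and 65.7 FPKM in the control libraries and 56.7, 50.3 and 56.5 FPKM in the knockdown libraries. MSMO1 fell by 2.14 (SE 0.035, adjusted p = 4.05e-11) in PANC1, to 0.227 times its control level, and fell by 0.37 (SE 0.058, adjusted p = 0.00117) in PATU8988T. The difference in MIA PaCa-2 was 0.33 (adjusted p = 0.261) and 0.068 (adjusted p = 0.143) without control replicate 2.

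The next enzymes of demethylation had smaller changes. NSDHL, the sterol dehydrogenase, was at 73.0, 76.4 and 69.3 FPKM in the control libraries and 60.8, 59.7 and 57.7 FPKM in the knockdown libraries of PANC1. MIA PaCa-2 had 27.1, 31.3 and 26.4 FPKM in the control libraries and 32.9, 32.6 and 33.6 FPKM in the knockdown libraries. PATU8988T had 28.4, 27.9 and 27.0 FPKM in the control libraries and 30.7, 33.0 and 32.0 FPKM in the knockdown libraries. Groups were apart in all lines, and NSDHL fell by 0.29 (SE 0.038, adjusted p = 6.08e-05) in PANC1 and rose by 0.20 (SE 0.043, adjusted p = 0.00537) in PATU8988T. The value in MIA PaCa-2 was 0.23 (adjusted p = 0.0807), or 0.30 (adjusted p = 3.29e-05) without control replicate 2.

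HSD17B7, the ketoreductase of the same complex, stood at 16.1, 16.6 and 16.1 FPKM in the control libraries and 13.4, 12.8 and 15.8 FPKM in the knockdown libraries of PANC1. MIA PaCa-2 gave 12.4, 10.6 and 11.7 FPKM in the control libraries and 19.6, 21.7 and 20.1 FPKM in the knockdown libraries. PATU8988T gave 15.8, 15.7 and 16.5 FPKM in the control libraries and 16.2, 16.2 and 16.1 FPKM in the knockdown libraries, with overlap. HSD17B7 fell by 0.23 (SE 0.07, adjusted p = 0.0151) in PANC1, rose by 0.82 (SE 0.094, adjusted p = 0.00113) in MIA PaCa-2 and had a difference of 0.013 (SE 0.042, adjusted p = 0.828) in PATU8988T.

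The last 3 enzymes shift, add or reduce double bonds of the sterol. EBP, the isomerase, fell by 0.63 (SE 0.029, adjusted p = 3.28e-08) in PANC1, had a difference of -0.058 (SE 0.14, adjusted p = 0.772) in MIA PaCa-2 and had a difference of 0.022 (SE 0.036, adjusted p = 0.655) in PATU8988T. Leaving out control replicate 2 turned the MIA PaCa-2 value of EBP to 0.11 (adjusted p = 0.0171). SC5D, the desaturase, had a difference of -0.016 in PANC1 (adjusted p = 0.750), rose by 0.86 (SE 0.19, adjusted p = 0.0124) in MIA PaCa-2, and differed by -0.033 in PATU8988T (adjusted p = 0.717). DHCR7, which completes cholesterol, differed by -0.0033 in PANC1 (95% interval -0.059 to 0.053, adjusted p = 0.911) and rose by 0.78 (SE 0.12, adjusted p = 0.00291) in MIA PaCa-2, and its value in PATU8988T was -0.094 (adjusted p = 0.0575). MVK, CYP51A1, TM7SF2, SC5D and DHCR7 were the 5 sterol enzymes not called in PANC1.

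**Figure D3:**
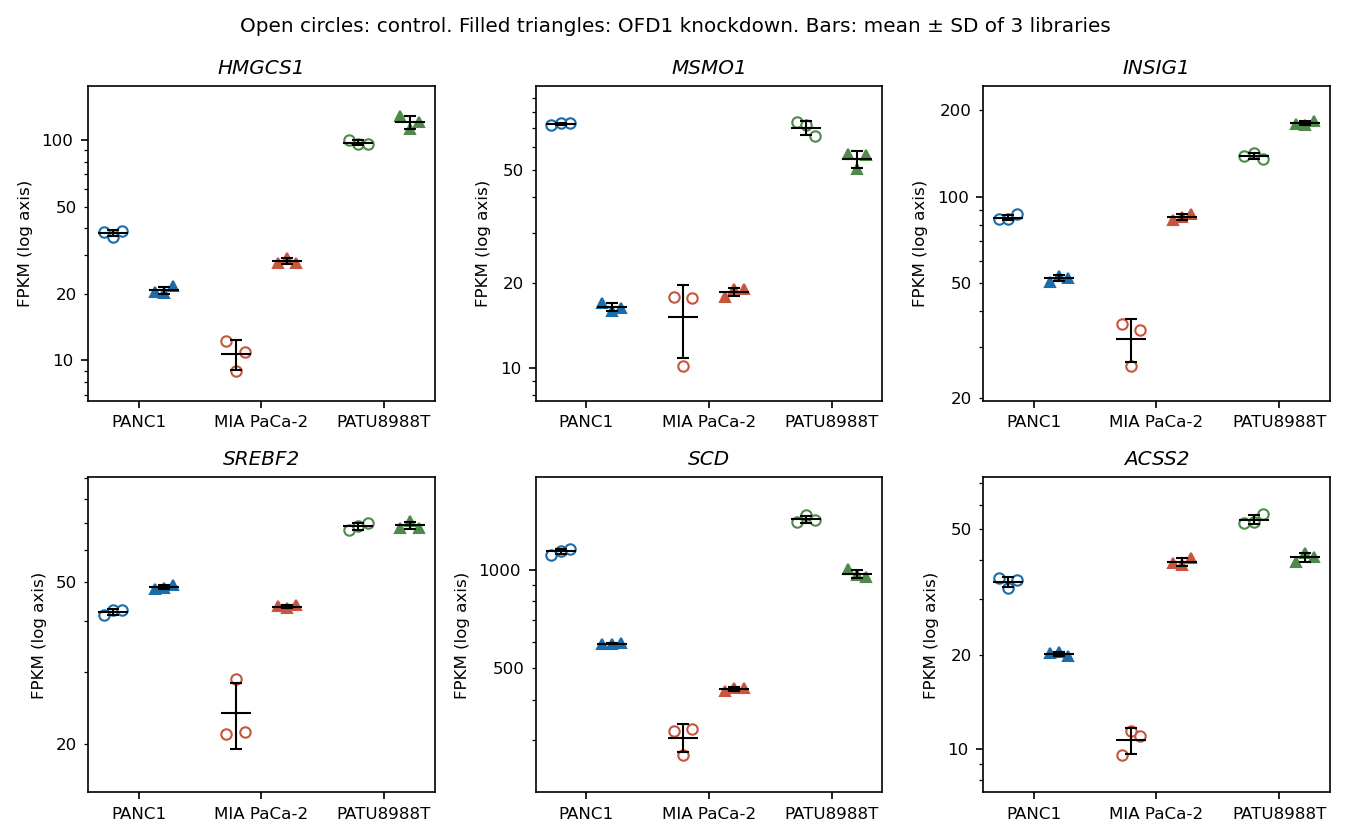
FPKM on a log axis for 6 members in the 3 lines. Open circles are control and filled triangles knockdown libraries, and bars give the mean ± SD of 3 libraries. HMGCS1, INSIG1 and ACSS2 lie lower with knockdown in PANC1 and higher in MIA PaCa-2, SREBF2 lies higher in both, and MSMO1 drops from about 72.6 to 16.4 FPKM in PANC1. FPKM values are comparable within a line and not between PANC1 and the other lines, whose gene lengths differ.

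The regulators came next. INSIG1 (chr7:155297776-155310235), itself a target of SREBP and a brake on it, read 83.4, 83.9 and 86.8 FPKM in the control libraries and 50.6, 53.2 and 52.2 FPKM in the knockdown libraries of PANC1. In MIA PaCa-2 it read 36.1, 25.8 and 34.3 FPKM in the control libraries and 82.9, 85.3 and 86.8 FPKM in the knockdown libraries. In PATU8988T it read 138, 142 and 135 FPKM in the control libraries and 179.5, 178 and 184 FPKM in the knockdown libraries. The groups were clear of each other in every line. INSIG1 fell by 0.70 (SE 0.03, adjusted p = 1.67e-08) in PANC1, rose by 1.42 (SE 0.13, adjusted p = 5.53e-04) in MIA PaCa-2 and rose by 0.38 (SE 0.034, adjusted p = 4.04e-05) in PATU8988T.

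SREBF2 (chr22:41833079-41907308) encodes SREBP-2, the form that favors cholesterol genes. It was at 41.4, 42.6 and 42.7 FPKM in the control libraries and 48.1, 48.4 and 49.2 FPKM in the knockdown libraries of PANC1. MIA PaCa-2 had 21.1, 28.8 and 21.4 FPKM in the control libraries and 43.6, 43.1 and 43.8 FPKM in the knockdown libraries. PATU8988T had 67.1, 68.6 and 70.0 FPKM in the control libraries and 68.0, 70.6 and 68.1 FPKM in the knockdown libraries, with overlap. SREBF2 rose by 0.20 (SE 0.029, adjusted p = 1.33e-04) in PANC1, where 24 members fell, and rose by 0.88 (SE 0.13, adjusted p = 0.00277) in MIA PaCa-2, and it had a difference of 0.0076 (SE 0.036, adjusted p = 0.883) in PATU8988T.

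SREBF1 encodes SREBP-1, the form that favors fatty acid genes. Its values were 34.4, 34.3 and 35.5 FPKM in the control libraries and 31.2, 32.1 and 31.7 FPKM in the knockdown libraries of PANC1. They were 35.3, 62.6 and 34.1 FPKM in the control libraries and 34.2, 34.3 and 34.4 FPKM in the knockdown libraries of MIA PaCa-2, where control replicate 2 alone stood apart and the other five libraries lay between 34.1 and 35.3 FPKM. In PATU8988T they were 98.3, 100.2 and 103 FPKM in the control libraries and 80.6, 89.5 and 87.0 FPKM in the knockdown libraries. SREBF1 fell by 0.13 (SE 0.032, adjusted p = 0.00416) in PANC1 and fell by 0.23 (SE 0.044, adjusted p = 0.00310) in PATU8988T, both small falls. For MIA PaCa-2 it had a difference of -0.30 (SE 0.23, adjusted p = 0.332), or -0.014 (adjusted p = 0.663) without control replicate 2. Exons of SREBF1 overlap RAI1 on the other strand.

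SCAP, the sterol sensor that escorts SREBP, fell by 0.17 (SE 0.038, adjusted p = 0.00245) in PANC1, had a difference of 0.25 (SE 0.19, adjusted p = 0.328) in MIA PaCa-2 and had a difference of 0.053 (SE 0.048, adjusted p = 0.408) in PATU8988T. Without control replicate 2, SCAP was called higher in MIA PaCa-2 at 0.48 (adjusted p = 1.29e-05). STARD4, a cytosolic sterol carrier, fell by 0.88 (SE 0.10, adjusted p = 2.64e-05) in PANC1 and fell by 0.55 (SE 0.08, adjusted p = 7.27e-04) in PATU8988T. It is listed at 0 in all 6 libraries of MIA PaCa-2 and was not analysed there. Among the 5 genes of this role, PANC1 had 1 called higher and 4 lower, PATU8988T had 1 higher and 2 lower, and of the 4 tested in MIA PaCa-2 2 were called higher, or 3 without control replicate 2. Higher and lower calls took 40.1% and 32.2% of all genes in PANC1 and 20.9% and 18.5% in PATU8988T, and higher calls 18.7% in MIA PaCa-2, or 35.4% without that library.

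Of the 8 enzymes of fatty acid synthesis, 6 were called lower and 0 higher in PANC1, also 0 higher by limma at an unadjusted p below 0.05, and 5 of 7 tested were called higher in MIA PaCa-2, or 7 without control replicate 2. The shares of all genes were 32.2% lower in PANC1 and 18.7% higher in MIA PaCa-2, or 35.4% without control replicate 2. PATU8988T had 2 higher and 2 lower, against 20.9% and 18.5% of genes. The medians were -0.53, 0.50 and -0.050.

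ACSS2 (chr20:34872146-34927962), which makes acetyl-CoA from acetate in the cytosol and nucleus, had the largest rise of all members in MIA PaCa-2. It went from 9.57, 11.5 and 11.03 FPKM in control to 39.2, 38.5 and 40.5 FPKM in knockdown libraries, a fold of 3.67. PANC1 had 34.9, 32.7 and 34.7 FPKM in the control libraries and 20.2, 20.4 and 19.8 FPKM in the knockdown libraries. PATU8988T had 52.5, 52.8 and 55.8 FPKM in the control libraries and 39.3, 42.2 and 40.7 FPKM in the knockdown libraries. Knockdown thus lay above control in MIA PaCa-2 and below it in the other two lines. ACSS2 rose by 1.88 (SE 0.093, adjusted p = 1.56e-04) in MIA PaCa-2, fell by 0.76 (SE 0.038, adjusted p = 5.40e-08) in PANC1 and fell by 0.40 (SE 0.042, adjusted p = 1.12e-04) in PATU8988T.

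The enzymes that make acetyl-CoA from citrate and malonyl-CoA from acetyl-CoA moved little outside MIA PaCa-2. ACLY, the citrate lyase, had a difference of 0.038 in PANC1 (95% interval -0.023 to 0.10) and of -0.045 in PATU8988T (95% interval -0.12 to 0.029), and rose by 0.46 (SE 0.067, adjusted p = 0.00264) in MIA PaCa-2. ACACA, the carboxylase, differed by 0.00022 in PANC1 (95% interval -0.073 to 0.074), and rose by 0.40 (SE 0.072, adjusted p = 0.00582) in MIA PaCa-2 and rose by 0.15 (SE 0.038, adjusted p = 0.0131) in PATU8988T.

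FASN, the fatty acid synthase, was at 157, 160.2 and 158 FPKM in the control libraries and 115, 112 and 114 FPKM in the knockdown libraries of PANC1. MIA PaCa-2 gave 94.8, 157 and 91.4 FPKM in the control libraries and 165, 165 and 166 FPKM in the knockdown libraries. PATU8988T gave 203, 207 and 214 FPKM in the control libraries and 179.7, 196 and 199 FPKM in the knockdown libraries. The groups did not overlap in any line. FASN fell by 0.48 (SE 0.022, adjusted p = 3.60e-08) in PANC1, and in MIA PaCa-2 it had a difference of 0.58 (SE 0.20, adjusted p = 0.0599) with all libraries and 0.83 (adjusted p = 2.23e-08) without control replicate 2. In PATU8988T it had a difference of -0.12 (SE 0.045, adjusted p = 0.0652).

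SCD (chr10:100347124-100364834), the desaturase that makes oleate, had the highest FPKM of the 34 members in the controls of every line. Its PANC1 values were 1112, 1145 and 1157 FPKM in the control libraries and 592, 592 and 597 FPKM in the knockdown libraries. MIA PaCa-2 had 320.1, 272 and 326 FPKM in the control libraries and 426, 434 and 435 FPKM in the knockdown libraries. PATU8988T had 1403, 1468 and 1416 FPKM in the control libraries and 1003, 962 and 950.1 FPKM in the knockdown libraries. Knockdown was lower in PANC1 and PATU8988T and higher in MIA PaCa-2, with no overlap. SCD fell by 0.94 (SE 0.018, adjusted p = 1.18e-10) in PANC1, rose by 0.50 (SE 0.08, adjusted p = 0.00389) in MIA PaCa-2 and fell by 0.56 (SE 0.037, adjusted p = 7.81e-06) in PATU8988T.

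ELOVL6, which lengthens palmitate to stearate, gave 9.78, 10.3 and 9.70 FPKM in the control libraries and 2.29, 2.26 and 2.14 FPKM in the knockdown libraries of PANC1. PATU8988T gave 14.9, 14.7 and 13.7 FPKM in the control libraries and 14.6, 13.5 and 13.5 FPKM in the knockdown libraries, and these overlapped. MIA PaCa-2 had 6 to 20 reads per library, below the minimum, and was not tested. ELOVL6 fell by 2.10 (SE 0.065, adjusted p = 2.25e-09) in PANC1, to 0.233 times its control level, and its difference in PATU8988T was -0.056 (adjusted p = 0.439).

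The desaturases of polyunsaturated fatty acids, FADS1 and FADS2, lie side by side and their exons overlap on opposite strands. FADS1 stood at 88.3, 91.4 and 92.5 FPKM in the control libraries and 77.8, 77.7 and 77.5 FPKM in the knockdown libraries of PANC1. For MIA PaCa-2 it stood at 25.8, 24.8 and 26.6 FPKM in the control libraries and 47.3, 48.4 and 46.6 FPKM in the knockdown libraries. PATU8988T gave 105, 105 and 106 FPKM in the control libraries and 114, 108 and 110.0 FPKM in the knockdown libraries. FADS1 fell by 0.22 (SE 0.026, adjusted p = 2.90e-05) in PANC1 and rose by 0.88 (SE 0.069, adjusted p = 3.15e-04) in MIA PaCa-2, and had a difference of 0.065 (SE 0.034, adjusted p = 0.160) in PATU8988T.

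FADS2 was at 142, 140.4 and 141 FPKM in the control libraries and 94.3, 95.2 and 92.7 FPKM in the knockdown libraries of PANC1. MIA PaCa-2 had 9.11, 12.4 and 10.1 FPKM in the control libraries and 11.1, 10.2 and 11.1 FPKM in the knockdown libraries, which overlapped. PATU8988T had 11.2, 11.4 and 12.1 FPKM in the control libraries and 12.3, 14.03 and 14.2 FPKM in the knockdown libraries. FADS2 fell by 0.58 (SE 0.023, adjusted p = 8.92e-09) in PANC1 and rose by 0.22 (SE 0.064, adjusted p = 0.0228) in PATU8988T, and its difference in MIA PaCa-2 was 0.05 (adjusted p = 0.786), or 0.17 (adjusted p = 0.0275) without control replicate 2.

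Left out of the MIA PaCa-2 fit, control replicate 2 moved the sizes of the rises but not their direction for the members called with all libraries. The log2 rise was then 1.93 for ACSS2, 1.27 for INSIG1, 1.28 for HMGCS1, 0.89 for CYP51A1 and 1.10 for FDPS. It was 1.03 for SREBF2, 0.86 for FADS1, 0.76 for HSD17B7, 0.75 for TM7SF2, 0.63 for FDFT1, 0.50 for SQLE, 0.42 for SCD and 0.25 for ACAT2. DHCR7, MVK, SC5D, ACLY and ACACA rose by 0.91, 0.82, 0.65, 0.52 and 0.38. Genes rich in G and C, such as SREBF2 and MVK, rose further without that library, and genes poor in them, such as IDI1 and SC5D, less. CYP51A1 was then short of the fold limit and SREBF2 past it. OFD1 itself stood at -0.76 (adjusted p = 8.70e-05).

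The 3 LXR targets did not exceed 7.44 FPKM in any library. ABCA1 (chr9:104781002-104928237), which exports cholesterol to lipid-poor apolipoprotein, went from 6.26, 6.91 and 7.44 FPKM in the PANC1 controls to 2.89, 3.08 and 3.04 FPKM with knockdown and fell by 1.16 (SE 0.078, adjusted p = 4.98e-07). In MIA PaCa-2 it had 148 to 282 reads per library and in PATU8988T 0 to 7, both below the minimum, so it was not tested there. Its MIA PaCa-2 values, 0.692, 0.435 and 0.590 FPKM in the control libraries and 0.366, 0.488 and 0.456 FPKM in the knockdown libraries, overlapped.

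ABCG1, another sterol exporter, was below the minimum in all 3 lines and has no test. It had 0.0509, 0.0519 and 0.0761 FPKM in control and 0.196, 0.190 and 0.264 FPKM in knockdown libraries of PANC1, and 0.0556, 0.0656 and 0.0847 and 0.253, 0.144 and 0.223 FPKM in those of MIA PaCa-2. These rest on 21 to 104 reads in PANC1 and 25 to 113 reads in MIA PaCa-2, and knockdown was above control in both. In PATU8988T, with 7 to 27 reads, the groups overlapped. MYLIP, a ubiquitin ligase that degrades lipoprotein receptors, rose by 0.63 (SE 0.09, adjusted p = 1.20e-04) in PANC1, had a difference of 0.20 (SE 0.14, adjusted p = 0.289) in MIA PaCa-2 and had a difference of 0.18 (SE 0.11, adjusted p = 0.213) in PATU8988T. It was called higher in MIA PaCa-2 without control replicate 2, at 0.31 (adjusted p = 0.0363).

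Whether the change differed between lines was tested as an interaction, fitted to the 18 libraries together for the 9083 genes that passed the minimum in each line, 30 members among them. The change was higher in MIA PaCa-2 than in PANC1 for 26 of 30 members, where 17.3% of genes were, and lower for 1, MYLIP, where 26.1% of genes were. PMVK, SREBF1 and SCAP were not called. MIA PaCa-2 also lay above PATU8988T for 22 members (21.8% of genes) and below it for 0 (31.0% of genes), also 0 by limma at an unadjusted p below 0.05. PATU8988T lay above PANC1 for 14 members (18.7% of genes) and below it for 1, again MYLIP (17.1% of genes), and 15 were not called. The median difference of the 30 members was 0.88 for MIA PaCa-2 minus PANC1, 0.61 for MIA PaCa-2 minus PATU8988T and 0.26 for PATU8988T minus PANC1, beside -0.072, -0.071 and -0.019 over all 9083 genes. The 3 comparisons share libraries in pairs. Each gene also has 1 spread over all 18 libraries, so control replicate 2 of MIA PaCa-2 enters the SE of PATU8988T minus PANC1. A difference that was not called is therefore not shown to be absent. Without control replicate 2 of MIA PaCa-2, the change differed for 28 members between MIA PaCa-2 and PANC1, 24 between MIA PaCa-2 and PATU8988T and 22 between PATU8988T and PANC1, where 64.3%, 70.9% and 59.0% of genes differed in either direction. The fall of OFD1 itself was smaller in MIA PaCa-2 than in PANC1 by 0.46 (SE 0.16, adjusted p = 0.0331) and than in PATU8988T by 0.49 (SE 0.16, adjusted p = 0.0193), or by 0.31 (adjusted p = 0.0422) and 0.34 (adjusted p = 0.0238) without that library. PATU8988T and PANC1 differed in it by -0.032 (adjusted p = 0.906).

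The largest gap between MIA PaCa-2 and PANC1 was that of ACSS2, 2.63 (SE 0.085, adjusted p = 2.59e-12) on the log2 scale, followed by MSMO1 at 2.48 (SE 0.21, adjusted p = 2.15e-07), HMGCS1 at 2.26 (SE 0.12, adjusted p = 9.01e-10) and INSIG1 at 2.12 (SE 0.12, adjusted p = 2.42e-09). These 4 genes did not get there in the same way. MSMO1 fell in PANC1 without a call in MIA PaCa-2, whereas the others fell in PANC1 and rose in MIA PaCa-2. The MIA PaCa-2 change of MSMO1 was 0.33 with all libraries and 0.068 without control replicate 2. The gap was 1.45 (SE 0.083, adjusted p = 3.23e-09) for FDPS, 1.44 (SE 0.072, adjusted p = 7.60e-10) for SCD, 1.41 (SE 0.20, adjusted p = 4.17e-05) for MVD and 1.33 (SE 0.057, adjusted p = 1.09e-10) for FDFT1. Between MIA PaCa-2 and PATU8988T, ACSS2 led with 2.27 (SE 0.085, adjusted p = 1.24e-11), then MVD with 1.38 (SE 0.20, adjusted p = 2.95e-05), HMGCS1 with 1.09 (SE 0.12, adjusted p = 1.32e-06), SCD with 1.06 (SE 0.072, adjusted p = 1.14e-08) and INSIG1 with 1.04 (SE 0.12, adjusted p = 2.89e-06). Between PATU8988T and PANC1, MSMO1 differed by 1.77 (SE 0.21, adjusted p = 6.39e-06), HMGCS1 by 1.16 (SE 0.12, adjusted p = 1.47e-06) and INSIG1 by 1.08 (SE 0.12, adjusted p = 3.64e-06). For SREBF2 the gap was -0.19 (SE 0.12, adjusted p = 0.213), with a spread that includes the MIA PaCa-2 libraries. The line-wise fits, without those libraries, gave its change an SE of 0.029 in PANC1 and 0.036 in PATU8988T.

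**Figure D4:**
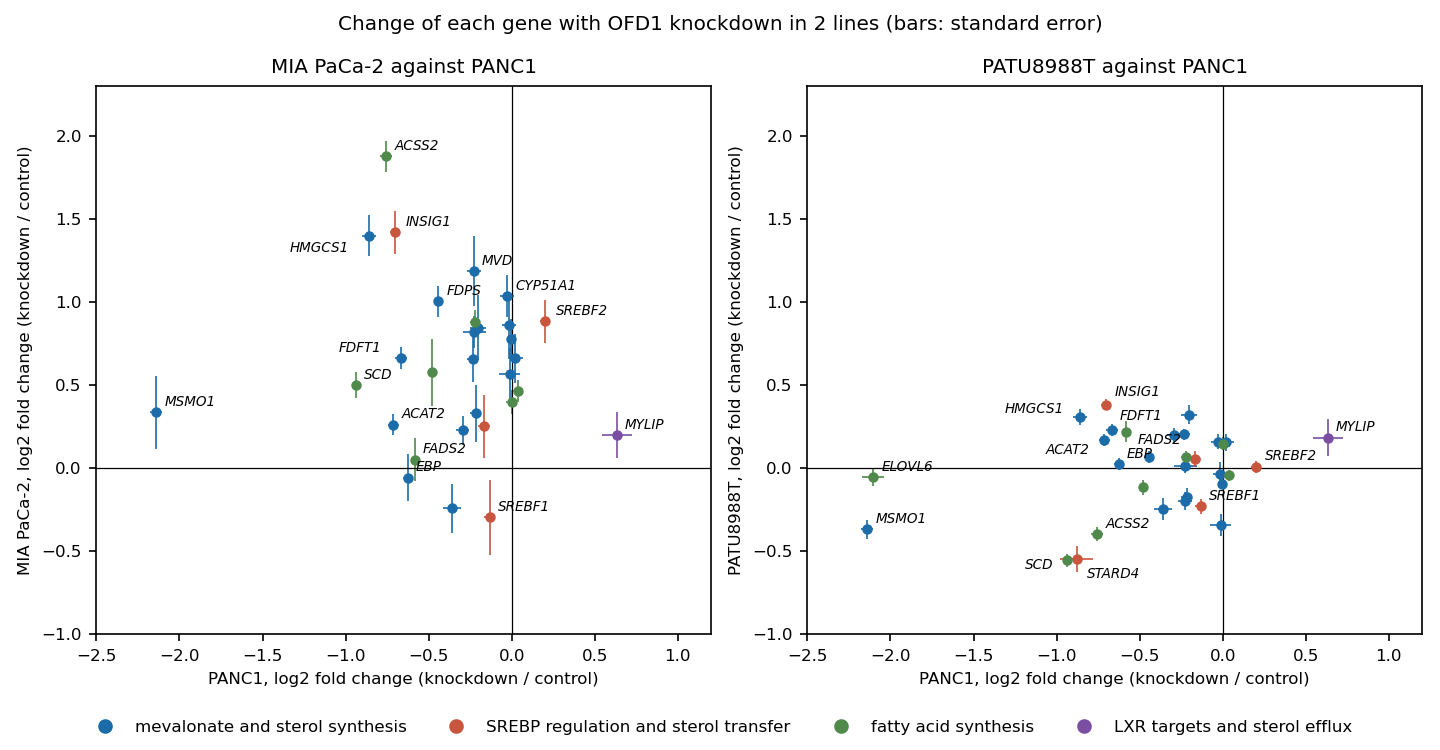
Log2 fold change (knockdown over control) of each member in PANC1 on the horizontal axis, and in MIA PaCa-2 (left) or PATU8988T (right) on the vertical axis. Colors give the role and bars the standard error of limma. The 12 genes called lower in PANC1 and higher in MIA PaCa-2 fill the upper left of the left panel, and the right panel is flatter, with SCD, ACSS2, STARD4 and MSMO1 low in both lines.

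Other genes of the same biology were read from lists. Of 11 further genes that process or hold back SREBP, PANC1 had 3 called higher and 6 lower, where 40.1% and 32.2% of all genes were. MIA PaCa-2 had 2 and 4 (18.7% and 21.7% of genes), or 3 and 5 without control replicate 2 (35.4% and 39.8% of genes), and PATU8988T 3 and 3 (20.9% and 18.5% of genes). The medians were -0.20, 0.020 and -0.070. ERLIN1, an endoplasmic reticulum membrane protein that binds the SREBP complex, fell by 1.39 (SE 0.04, adjusted p = 1.49e-09) in PANC1 and fell by 1.002 (SE 0.093, adjusted p = 5.53e-04) in MIA PaCa-2. In PATU8988T it fell by 0.26 (SE 0.041, adjusted p = 0.0011). Its partner ERLIN2 fell by 1.44 (SE 0.11, adjusted p = 3.15e-04) in MIA PaCa-2 and fell by 0.94 (SE 0.059, adjusted p = 5.87e-06) in PATU8988T. In PANC1 ERLIN2 fell by 0.99 (SE 0.18, adjusted p = 5.32e-04). INSIG2, the second INSIG gene, fell by 0.98 (SE 0.052, adjusted p = 2.16e-06) in PATU8988T, where INSIG1 rose. In the other lines it went the way of INSIG1. It fell by 0.29 (SE 0.07, adjusted p = 0.0035) in PANC1 and rose by 0.72 (SE 0.17, adjusted p = 0.0164) in MIA PaCa-2. RNF145, a ubiquitin ligase of the sterol response, fell by 0.69 (SE 0.034, adjusted p = 4.51e-08) in PANC1 and by 0.60 (SE 0.078, adjusted p = 0.0018) in MIA PaCa-2. It had a difference of 0.040 (adjusted p = 0.383) in PATU8988T.

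Of 13 further genes known as SREBP targets or partners, PANC1 had 2 called higher and 9 lower (all genes 40.1% and 32.2%), MIA PaCa-2 4 and 3 (18.7% and 21.7%), and PATU8988T 1 and 2 (20.9% and 18.5%). Without control replicate 2, MIA PaCa-2 had 8 and 4 (35.4% and 39.8%). The medians were -0.47, 0.15 and -0.021. ALDOC, an aldolase of glycolysis, had the smallest p of the list in each line. It went from 12.0 ± 0.878 to 2.68 ± 0.0755 FPKM in PANC1, from 7.40 ± 1.25 to 35.4 ± 1.15 in MIA PaCa-2 and from 472 ± 4.54 to 243 ± 12.6 in PATU8988T (mean ± SD, n = 3), and fell by 2.12 (SE 0.069, adjusted p = 3.15e-09), rose by 2.25 (SE 0.13, adjusted p = 1.68e-04) and fell by 0.96 (SE 0.041, adjusted p = 9.57e-07). IDH1, a cytosolic source of NADPH, rose by 0.76 (SE 0.028, adjusted p = 7.33e-09) in PANC1, against the direction of most of the list. It also rose by 0.70 (SE 0.10, adjusted p = 0.0025) in MIA PaCa-2. NFYA, a subunit of NF-Y, fell by 0.94 (SE 0.088, adjusted p = 5.53e-04) in MIA PaCa-2, where most members rose. It also fell by 0.49 (SE 0.061, adjusted p = 4.63e-05) in PANC1. LPIN1, a phosphatidate phosphatase, fell by 0.25 (SE 0.037, adjusted p = 7.34e-04) in PATU8988T.

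Of 12 further genes of sterol transport and LXR, 11 were tested in PANC1 with 6 higher and 2 lower, against 40.1% and 32.2% of all genes. In MIA PaCa-2, 9 were tested with 2 higher and 0 lower, against 18.7% and 21.7%, also 0 lower by limma at an unadjusted p below 0.05, and 6 were higher without control replicate 2, against 35.4%. In PATU8988T, 11 were tested with 1 higher and 3 lower, against 20.9% and 18.5%. NPC1, which releases cholesterol from lysosomes, fell by 0.62 (SE 0.046, adjusted p = 1.14e-06) in PANC1 and rose by 0.48 (SE 0.085, adjusted p = 0.00560) in MIA PaCa-2. STARD3, a lysosomal sterol carrier, rose by 0.57 (SE 0.045, adjusted p = 1.55e-06) in PANC1, and OSBP, which moves cholesterol to the Golgi, rose by 0.43 (SE 0.085, adjusted p = 0.00878) in MIA PaCa-2. NPC2, the lysosomal partner of NPC1, fell by 0.19 (SE 0.038, adjusted p = 0.00355) in PATU8988T, and the lipoprotein receptor gene VLDLR fell by 0.51 (SE 0.061, adjusted p = 2.21e-04) there.

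Of 19 further genes of fatty acid elongation, desaturation and activation, PANC1 had 1 called higher and 8 lower of 14 tested (all genes 40.1% and 32.2%). MIA PaCa-2 had 1 and 3 of 15 (18.7% and 21.7%), or 5 and 6 without control replicate 2 (35.4% and 39.8%), and PATU8988T 3 and 2 of 16 (20.9% and 18.5%). HACD3, a dehydratase of the elongation cycle, fell by 0.84 (SE 0.033, adjusted p = 9.61e-09) in PANC1 and fell by 0.88 (SE 0.11, adjusted p = 0.00167) in MIA PaCa-2, where most members rose. ACSL4, which activates polyunsaturated fatty acids, fell by 0.97 (SE 0.045, adjusted p = 3.12e-08) in PANC1. ELOVL1, an elongase of very long chains, fell by 0.65 (SE 0.11, adjusted p = 0.00399) in MIA PaCa-2 and fell by 0.34 (SE 0.042, adjusted p = 2.51e-04) in PATU8988T, and FADS3 rose by 0.38 (SE 0.049, adjusted p = 3.86e-04) in PATU8988T.

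The prenyl branches use isoprene units of the mevalonate pathway for protein anchors, dolichol and ubiquinone. Of 9 genes tested in each line, PANC1 had 3 called higher and 1 lower (all genes 40.1% and 32.2%). MIA PaCa-2 had 1 higher and 3 lower (18.7% and 21.7%), or 1 and 7 without control replicate 2 (35.4% and 39.8%). PATU8988T had 2 higher and 0 lower (20.9% and 18.5%), with 0 lower by limma also at an unadjusted p below 0.05. GGPS1, which makes geranylgeranyl diphosphate, rose by 0.47 (SE 0.041, adjusted p = 3.47e-06) in PANC1, and NUS1, of dolichol synthesis, rose by 0.23 (SE 0.036, adjusted p = 2.50e-04) there. DOLK, the dolichol kinase, fell by 0.78 (SE 0.11, adjusted p = 0.00254) in MIA PaCa-2 and rose by 0.16 (SE 0.046, adjusted p = 0.0208) in PATU8988T. PDSS1 and COQ2 serve ubiquinone synthesis, and PDSS1 fell by 0.62 (SE 0.11, adjusted p = 0.00522) in MIA PaCa-2 and COQ2 rose by 0.21 (SE 0.042, adjusted p = 0.00355) in PATU8988T.

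Fatty acid oxidation, the opposite process, had 13 genes tested in each line, of which PANC1 had 6 called higher and 4 lower, close to the 40.1% and 32.2% of all genes. MIA PaCa-2 had 5 and 3 (18.7% and 21.7%), or 9 and 4 without control replicate 2 (35.4% and 39.8%), and PATU8988T 3 and 3 (20.9% and 18.5%). ACADM, the medium-chain acyl-CoA dehydrogenase, went from 32.5 ± 0.171 to 4.18 ± 0.183 FPKM in PANC1 (mean ± SD, n = 3) and fell by 2.93 (SE 0.048, adjusted p = 4.05e-11), and in PATU8988T it fell by 0.60 (SE 0.076, adjusted p = 3.28e-04). The control and knockdown levels of ACADM in MIA PaCa-2 were 12.5 ± 3.87 and 1.89 ± 0.346 FPKM. CPT1A, which brings fatty acids into mitochondria, fell by 1.33 (SE 0.12, adjusted p = 5.01e-04) in MIA PaCa-2 and fell by 0.53 (SE 0.072, adjusted p = 4.98e-04) in PATU8988T. HADHA, of the trifunctional protein, rose by 0.74 (SE 0.053, adjusted p = 2.60e-04) in MIA PaCa-2, and ETFDH, which passes the electrons on, rose by 1.03 (SE 0.056, adjusted p = 9.81e-08) in PANC1.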

How the data were processed

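Per the study's methods, the authors aligned the reads with HISAT2, counted them on genes with HTSeq-count and divided by gene length and library size, and the deposited values are FPKM per gene symbol. The submitters' processing notes name the builds hg38, GRCm38 and mm10. The labels and the methods name different extraction and library kits. The table was read by its column names, with 0 columns of no sample. Reads per gene were recovered from the FPKM steps for depth only, and counting error is not part of the SE. The line-wise fits used limma 3.58.1 in R 4.3.3 on log2(FPKM + 0.1), with a mean of at least 1 FPKM over the 6 libraries of a line, a variance trend and Benjamini-Hochberg adjustment over all genes tested, and no covariates. The interaction was fitted on all 18 libraries, with 1 shared spread per gene. With 3 libraries against 3, an exact permutation test of 1 gene cannot go below p = 0.1, so none was used. The fits were also run on simulated libraries with planted changes as large as the fold limit and the same independent spread for every gene. That run holds no library like control replicate 2 of MIA PaCa-2 and no smaller changes, so it cannot speak to either. Control replicates 1, 2 and 3 were not treated as paired with knockdown replicates, since same-numbered libraries deviated together with r between -0.11 and 0.13. The members and the lists were chosen with earlier results of these data known. Given in every library were OFD1, HMGCS1, SQLE, INSIG1, SREBF1, SREBF2, FASN, SCD, ABCA1, members past the fold limit in any line, and members called in opposite directions or with interaction differences above 1 in 2 pairs of lines. From the other lists, the 2 called genes with the smallest p per line were named, and markers and ACADM in MIA PaCa-2 were chosen after their values were seen. Promoter sequences and motif counts came from RefSeq windows (GRCh38.p14), and transcript GC content and overlaps from the reference annotation. Alternatives were other pseudocounts, filters, scalings, variance models, leaving out each library, and a block for the replicate number.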

Additional observations from a re-analysis of the deposited data

Results flagged for a closer look

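Some members were called in opposite directions in a pair of cell lines and had a difference between the lines that was itself past the adjusted threshold of limma.

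Between MIA PaCa-2, where the gene rose, and PANC1, where it fell, there were 12. Such opposite calls alone, without the difference between lines, took 2.58% of all genes tested in both. On the log2 scale the change in MIA PaCa-2 minus that in PANC1 was 2.63 for ACSS2, 2.26 for HMGCS1, 2.12 for INSIG1, 1.45 for FDPS, 1.44 for SCD, 1.41 for MVD, 1.33 for FDFT1, 1.10 for FADS1, 1.05 for IDI1, 1.04 for HSD17B7, 0.97 for ACAT2 and 0.89 for SQLE. They include enzymes from both ends of the mevalonate steps, the SREBP brake INSIG1 and enzymes of fatty acid desaturation and acetate use.

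Between PATU8988T, where the gene rose, and PANC1, where it fell, there were 8, with differences of 1.16 for HMGCS1, 1.08 for INSIG1, 0.89 for FDFT1, 0.88 for ACAT2, 0.80 for FADS2, 0.53 for IDI1, 0.49 for NSDHL and 0.44 for SQLE. Between MIA PaCa-2, where the gene rose, and PATU8988T, where it fell, there were 4, with differences of 2.27 for ACSS2, 1.38 for MVD, 1.06 for SCD and 0.91 for TM7SF2. Opposite calls alone took 4.64% and 4.22% of all genes tested in both lines of these 2 pairs. The share of genes that also had a called difference is not given for any pair. Some of the calls were narrow. In 1 fit of all libraries, MVD and IDI1 lost their call in PANC1, and MVD, IDI1, SQLE, TM7SF2 and FADS2 theirs in PATU8988T. A line and the way its own libraries were prepared cannot be told apart.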

How the results depend on the processing

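The 95 member values (a gene in a line) were refitted under up to 15 alternative settings each. Of these values, 89 were tested at 5 FPKM and 90 in 1 fit of all libraries. In 1329 cases the value kept its side of the threshold, 68 lost a call and 16 gained one. In 1 case a call was gained in the opposite direction: EBP in MIA PaCa-2 went from -0.058 to 0.11 without control replicate 2. Its values ranged from -0.15 to 0.11 over the libraries left out, and the cause was not tested. Values without a call could also change sign, as MVK in PANC1 did, from -0.042 to 0.060 over the settings. Other pseudocounts and median-of-ratios scaling changed no member's adjusted-p call within a line. Past the fold limit, a pseudocount of 1 gave 2 members instead of 3 in PANC1 and 5 instead of 6 in MIA PaCa-2. Median-of-ratios scaling gave 5 in MIA PaCa-2, and TPM scaling 4 in each of these lines. Members whose change differed numbered 26 instead of 27 for MIA PaCa-2 minus PANC1 with a pseudocount of 0.01. For PATU8988T minus PANC1 they numbered 14 with it and 16 with median-of-ratios, instead of 15. With a minimum of 5 FPKM, 1 member instead of 2 was called higher in PANC1. MYLIP, at 3.06 FPKM in control and 4.8 FPKM in knockdown libraries on average, was then below the minimum and not tested. In 1 fit of all libraries, 1 member instead of 3 passed the fold limit in PANC1, since ELOVL6 and ABCA1 were not tested. PANC1 had 16 lower instead of 24, MIA PaCa-2 23 higher instead of 20, and PATU8988T 6 higher and 2 lower instead of 11 and 9. In that fit 16 values still tested lost a call, and the cause was not tested. The members' median in PANC1 was -0.29 with median-of-ratios and -0.30 with TPM scaling. In MIA PaCa-2 it was 0.58 with no filter and 0.56 with TPM scaling, and in PATU8988T -0.0026 with TPM scaling and 0.037 in 1 fit of all libraries. Member counts under the other pseudocounts, filters and scalings and in 1 fit of all libraries have no background beside them. Shares of all genes called or past the fold limit are not given there. The median of all genes moved by less than 0.1 under every scaling.

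Leaving out each library in turn gave medians of -0.27 to -0.22 in PANC1, 0.54 to 0.62 in MIA PaCa-2 and 0.0068 to 0.033 in PATU8988T. Members called higher ranged from 14 to 27 in MIA PaCa-2 and from 7 to 10 in PATU8988T, and those called lower from 6 to 11 in PATU8988T. The share of all genes called also moves with the setting. Higher calls in MIA PaCa-2 took 18.7% of genes with all libraries and 35.4% without control replicate 2, which gave the 27. Shares for the other libraries left out are not given. With control replicate 2 left out and median-of-ratios scaling together, a setting chosen after the data were seen, 1 member was called lower in MIA PaCa-2 instead of 0.

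With the replicate number as a block, 24 members were lower in PANC1, 19 higher in MIA PaCa-2, and 11 higher and 10 lower in PATU8988T. ACAT2 lost its call in MIA PaCa-2 and FASN gained one in PATU8988T. The differences between lines gave 26, 22 and 13 members with the block, against 27, 22 and 15. The shares of all genes called with the block are not given, so these counts have no background beside them.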
